A study of Mus musculus with 6 samples.

Results

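The report concerns 10 genes for amino acid transporters of the cell membrane that are known targets of the transcription factor ATF4, Slc3a2, Slc7a5, Slc7a6, Slc7a11, Slc7a1, Slc38a1, Slc38a2, Slc1a4, Slc1a5 and Slc6a9. They were chosen by name from the 40202 genes of the deposited table, and all 10 exceeded the filter on low values (a mean of at least 10 normalised reads over the 6 libraries), as did 14079 genes in all. Total RNA was sequenced from BV2 cells, an immortalised murine microglial line labelled with the strain background C57BL/6 and grown in serum-containing medium with added nonessential amino acids. Of the 6 samples, 3 were untreated (control) and 3 had been incubated with human full-length apolipoprotein E4 protein (FL-ApoE4) at 25 µg/ml for 5 h. The labels name no altered allele in either group, and they do not state if a vehicle was added to the untreated samples. The comparison asked whether transcripts of these transporters differ after exposure of microglial cells to the intact protein.

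Cells short of amino acids phosphorylate the initiation factor eIF2α, through the kinase GCN2 among others, which favours translation of ATF4. ATF4 then binds composite elements called C/EBP-ATF response elements (CARE) in genes for amino acid uptake, synthesis and tRNA charging. Several of these transporters are heteromers in which the heavy chain encoded by Slc3a2 (CD98hc, or 4F2hc) carries a light chain to the surface. The light chain encoded by Slc7a11 (xCT) exchanges extracellular cystine for intracellular glutamate and is known in microglia as a route of glutamate release.

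The line was checked against markers. Of 9 microglia and macrophage markers 8 exceeded the filter, with Csf1r at 47193 ± 1926 normalised reads (mean ± SD, n = 3) in controls, whereas P2ry12, a receptor of resting microglia, was listed at 0 in all 6 libraries. Summed markers of this list ranged from 144767 to 151278 in controls and from 160467 to 170577 with FL-ApoE4, and the part of this difference in the results was not tested. Fibroblast markers summed to at most 9, astrocyte markers to at most 90 and neuron markers to at most 135, and of the oligodendrocyte and endothelial markers Mbp and Kdr were the highest, at means of 1120 and 4180. Libraries held 45700128 to 54965393 reads assigned to genes, and the lowest count behind any member was 1153 reads (Slc6a9 in FL-ApoE4 replicate 1), a counting error of 2.95%. In bulk RNA, fewer cells that express a gene and less RNA per cell cannot be told apart.

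In each group 1 library stood apart. Averaged over tested genes, the chi-square statistic for unequal reads was 64.1 and 71.9 between control replicate 1 and the other controls, and 4.85 between the latter. FL-ApoE4 replicate 1 gave 21.4 and 19.9 against the other FL-ApoE4 libraries, which gave 4.39 with each other. Its deviations from its group mean followed transcript length with a Spearman correlation of -0.46 over 12959 genes. Results are therefore given over all 6 libraries, without control replicate 1 and, for the transporters, the counts of related lists and some genes of these lists, without both. The labels do not say that replicates were separate cultures, and p-values then measure the spread between these samples alone, a spread that may be technical.

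A CARE sequence close to the transcription start was found in Slc7a11 and Slc1a4, and their promoter windows are shown because these genes also had the largest negative changes of the 10, both over all libraries and without control replicate 1. Windows of 250 bases before to 50 after an annotated start (RefSeq, build GRCm38.p6; the build in the submitters' processing notes is GRCm39) were held for 7 of the 10 genes. They are Slc3a2, Slc7a6, Slc7a11, Slc7a1, Slc38a2, Slc1a4 and Slc6a9, with 11 windows in all. Each window was searched on both strands for TGATGNAA, the CARE core, for TGACNNNGC, the antioxidant response element (ARE) bound by NRF2, and for CACGTG, the E-box bound by MYC. Capitals mark CARE matches in the windows of Slc7a11 (chr3:50443564-50443863, minus strand) and Slc1a4 (chr11:20332664-20332963, minus strand) and the ARE match in that of Slc7a6 (chr8:106168604-106168903, plus strand), which is shown as the member with a mean level above that of controls.
Slc7a11: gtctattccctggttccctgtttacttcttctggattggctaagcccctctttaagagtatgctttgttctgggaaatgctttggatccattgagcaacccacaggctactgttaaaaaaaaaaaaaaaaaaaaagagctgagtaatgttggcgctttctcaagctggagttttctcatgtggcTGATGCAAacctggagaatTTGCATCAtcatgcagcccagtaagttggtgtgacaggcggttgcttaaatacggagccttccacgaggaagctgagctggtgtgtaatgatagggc
Slc1a4: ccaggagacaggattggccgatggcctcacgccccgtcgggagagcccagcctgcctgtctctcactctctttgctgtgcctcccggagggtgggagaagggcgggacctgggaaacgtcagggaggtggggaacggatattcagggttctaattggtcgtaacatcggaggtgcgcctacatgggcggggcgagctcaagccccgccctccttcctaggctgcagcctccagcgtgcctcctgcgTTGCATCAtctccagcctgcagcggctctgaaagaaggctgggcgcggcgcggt
Slc7a6: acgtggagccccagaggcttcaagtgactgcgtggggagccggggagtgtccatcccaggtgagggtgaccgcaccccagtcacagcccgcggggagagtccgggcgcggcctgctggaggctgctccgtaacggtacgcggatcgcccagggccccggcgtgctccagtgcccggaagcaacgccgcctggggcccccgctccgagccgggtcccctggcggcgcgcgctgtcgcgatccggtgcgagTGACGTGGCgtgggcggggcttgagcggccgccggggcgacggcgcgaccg

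The Slc7a11 window held 2 CARE matches, which lie on opposite strands with their first bases at -66 and -47 from the start. The Slc1a4 window held 1, on the strand opposite to the gene, with its first base at -4. By comparison, 3.97% of all 32851 promoter windows and 4.51% of all genes with a window held the motif. ARE matches were found in 4 of the 7 genes, Slc7a6, Slc7a1, Slc38a2 and Slc6a9, where 14.0% of all genes with a window had one, and E-box matches in 0 of them, where 8.09% of genes did. No gene had both a CARE and an ARE match in its windows. These are matches of letters in short windows. The windows shown were picked by the changes of their genes, so they cannot bear on a link between motif and change. Slc7a1, Slc38a2 and Slc6a9, with ARE matches, had lower mean levels with FL-ApoE4, unlike Slc7a6. A link between motif and change was not tested. Sequence elsewhere in the genes was not searched.

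Over all 6 libraries, 9 of the 10 genes had lower mean levels with FL-ApoE4, where 49.7% of tested genes did, and Slc7a6 had a higher one. The median of their log2 fold changes was -0.25, against 0.00 for all tested genes. Of the 10, 7 had all FL-ApoE4 libraries below all controls (Slc7a5, Slc7a11, Slc7a1, Slc38a1, Slc38a2, Slc1a4 and Slc6a9), a pattern shown by 10.9% of tested genes. No member passed the test, which was limma on log2(normalised reads + 1) with Benjamini-Hochberg adjustment over all tested genes and a threshold of 0.05. In that fit 0 of 14079 genes were called (0.0%). An unadjusted p under 0.05 with a negative change was reached by the same 7 genes and by 6.33% of tested genes, and 13.1% reached it in either direction. On whole reads recovered from the table, edgeR called 0 genes (0.0%) and 0 members, with 7 members lower at an unadjusted p under 0.05 (6.29% of genes), whereas DESeq2 called 370 genes and, as lower, 4 members (Slc7a5, Slc7a1, Slc1a4 and Slc6a9) where 1.41% of genes were called lower. In the authors' deposited table the same 4 had adjusted p-values of 0.0194, 0.0425, 0.00389 and 0.0447, where 1.33% of genes were called lower.

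**Figure D1:**
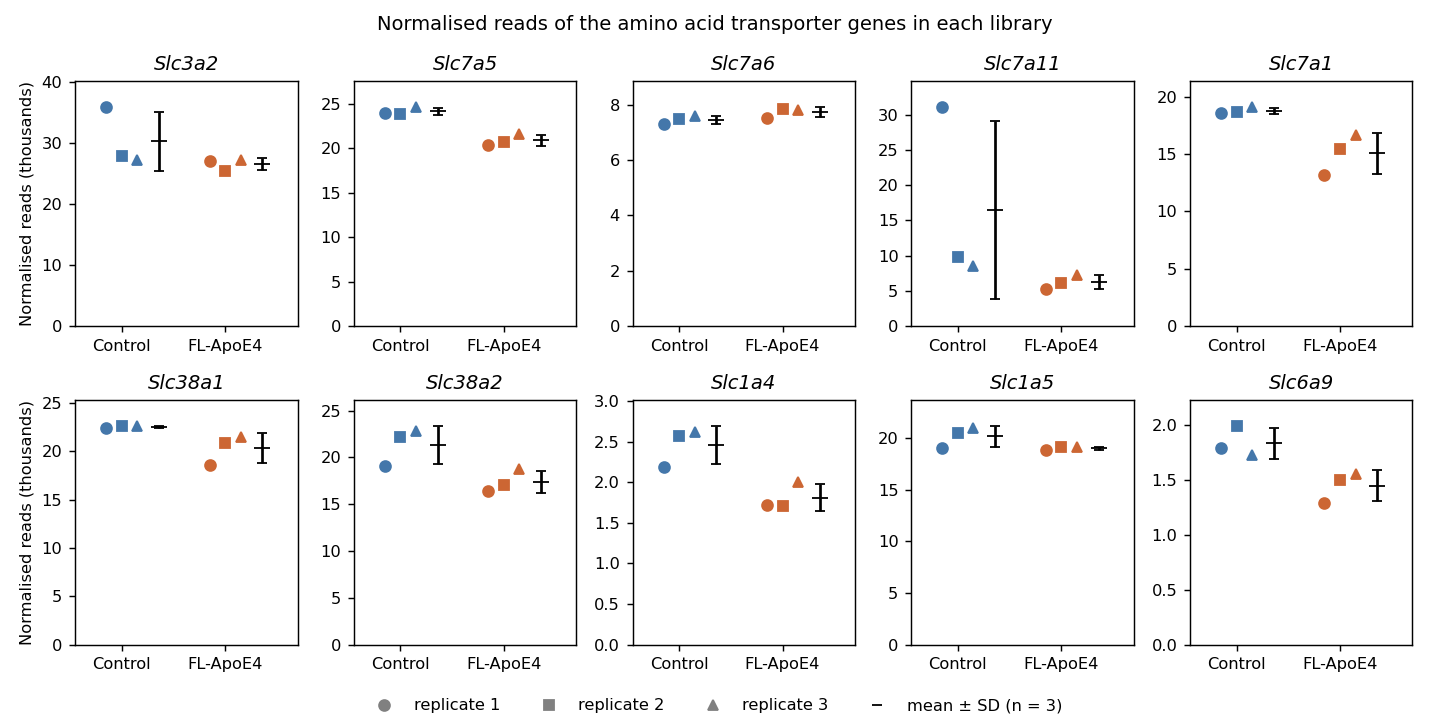
Normalised reads (y axis, from 0) of each transporter gene in the 3 control (blue) and 3 FL-ApoE4 (orange) libraries, with symbols for the replicate and black bars for the mean ± SD. The libraries of the groups do not overlap in 7 panels, and control replicate 1 is far above the others for Slc7a11 (31070) and highest for Slc3a2 (35788).

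Without control replicate 1, limma called 4 members lower (Slc7a5, Slc7a11, Slc38a2 and Slc1a4) and 0 higher, where 1.69% of genes were called lower. The median was -0.27. Without the same library edgeR called the same 4 (1.9% of genes lower) and DESeq2 these and Slc7a1 and Slc6a9 (3.34% of genes lower). Without both control replicate 1 and FL-ApoE4 replicate 1, 7 members were called lower by limma, where 5.53% of genes were, and Slc3a2, Slc7a6 and Slc38a1 were not called. Leaving out control replicate 1 left the most alike controls, so the spread may be understated and p-values too small. Leaving out FL-ApoE4 replicate 1 as well left the most alike libraries in both groups. The fit without both was chosen after the data were seen. Its p-values, here and below, may be too small for both reasons. Without FL-ApoE4 replicate 1 alone 0 members and 0 genes (0.0%) were called by limma, and 5 members had an unadjusted p under 0.05 (4.87% of genes when lower).

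**Figure D2:**
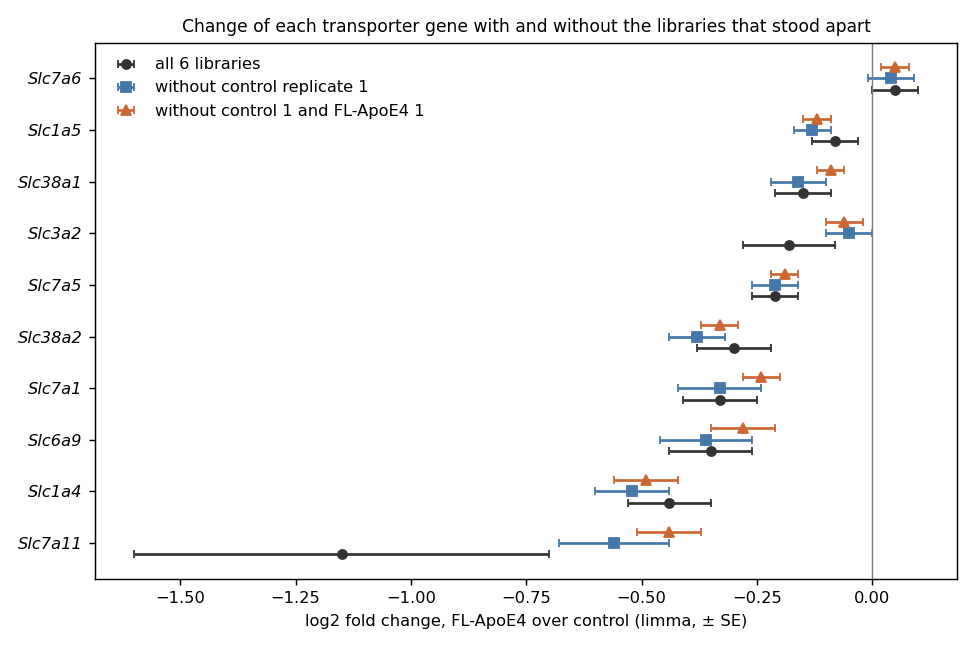
The log2 fold change of FL-ApoE4 over control (x axis) with its SE from limma for each transporter gene, over all 6 libraries (black circles), without control replicate 1 (blue squares) and without both that library and FL-ApoE4 replicate 1 (orange triangles). Slc7a11 moves from -1.15 to -0.56 and -0.44, whereas Slc7a5 stays between -0.21 and -0.19 and Slc7a6 above 0.

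The heavy chain gene Slc3a2 was at 35788, 27817 and 27120 normalised reads in control replicates 1 to 3 and at 26943, 25399 and 27169 in FL-ApoE4 replicates 1 to 3. The groups overlapped, and control replicate 1 was the single library set apart, 1.3 times the mean of the other controls. Between the groups Slc3a2 differed by -0.18 ± 0.10 on the log2 scale (SE, limma adjusted p = 0.517), and by -0.05 ± 0.05 without control replicate 1 (adjusted p = 0.623).

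Slc7a5 encodes LAT1, the light chain that imports leucine and other large neutral amino acids. It was at 23921, 23830 and 24586 normalised reads in controls and at 20361, 20707 and 21594 with FL-ApoE4. The libraries were tight in both groups and did not overlap, with a mean 13.4% below that of controls. The log2 fold change of -0.21 ± 0.05 missed the threshold over all libraries (limma adjusted p = 0.155) and passed it without control replicate 1, where Slc7a5 fell by 0.21 (adjusted p = 0.0421).

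For Slc7a11, the cystine and glutamate exchanger, control replicates 1 to 3 held 31070, 9756 and 8545 normalised reads. With FL-ApoE4 it was at 5318, 6157 and 7312. All treated libraries were below all controls, but control replicate 1 was 3.4 times the mean of the other controls, a ratio reached by 0.661% of tested genes. Over all libraries it differed by -1.15 ± 0.45 on the log2 scale (limma adjusted p = 0.337). Without control replicate 1 Slc7a11 fell by 0.56 ± 0.12 (adjusted p = 0.0351), its mean lying 31.6% below that of control replicates 2 and 3, the largest decrease of the 10 genes in that fit. Without FL-ApoE4 replicate 1 as well, the change of -0.44 was smaller than that of Slc1a4 (-0.49).

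Slc7a6 encodes y+LAT2, a light chain that exchanges cationic for neutral amino acids. It was at 7317, 7472 and 7604 normalised reads in controls and at 7517, 7850 and 7811 with FL-ApoE4. The groups overlapped. Its log2 fold change of 0.05 ± 0.05 had a limma adjusted p of 0.706 and lay between 0.03 and 0.07 in every alternative analysis run.

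Since these light chains share the heavy chain, their levels were set against it per kb of the longest annotated transcript. Slc3a2 was at 10751 ± 1710 normalised reads per kb in controls and 9422 ± 342 with FL-ApoE4. The sum of the 3 light chains was 0.953, 0.994 and 1.03 times Slc3a2 in control replicates 1 to 3 and 0.874, 0.958 and 0.933 times with FL-ApoE4, and the ranges overlapped. Control replicate 1 stood furthest from the other libraries in the shares of Slc7a11 and Slc7a5 in that sum. Slc7a11 made up 27.8%, 10.8% and 9.32% of it in controls and 6.89%, 7.72% and 8.79% with FL-ApoE4, with no overlap. Slc7a5 made up 56.1% of it in control replicate 1 and 68.1% to 70.3% in the other 5 libraries. Other light chains that pair with the heavy chain were not in this sum. The ratio to Slc3a2 and the shares therefore hold for these 3 genes alone and depend on which light chains are summed.

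**Figure D3:**
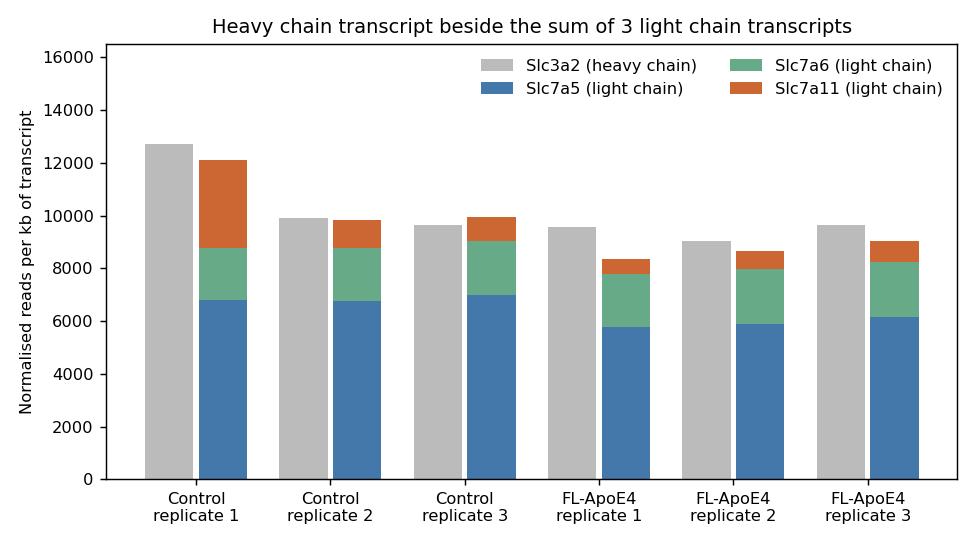
Normalised reads per kb of transcript of the heavy chain Slc3a2 (grey) beside the stacked light chains Slc7a5 (blue), Slc7a6 (green) and Slc7a11 (orange) in each library. In control replicate 1 both bars are higher and Slc7a11 takes 27.8% of the stack, against 6.89% to 10.8% in the other libraries.

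Slc7a1 encodes CAT1, the main importer of arginine and lysine, and acts without the heavy chain. It was at 18555, 18693 and 19075 normalised reads in controls and at 13128, 15401 and 16642 with FL-ApoE4. Controls agreed closely, control replicate 1 included, and all treated libraries were lower. The mean was 19.8% lower, or -0.33 ± 0.08 on the log2 scale (limma adjusted p = 0.2), and -0.33 ± 0.09 without control replicate 1 (adjusted p = 0.0742). It was called by limma only when FL-ApoE4 replicate 1 was also left out (-0.24, adjusted p = 0.00183), and by DESeq2.

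The sodium-coupled carriers of glutamine and alanine are encoded by Slc38a1 (SNAT1) and Slc38a2 (SNAT2), the latter known for its induction when amino acids run short. Slc38a2 was at 19052, 22172 and 22837 normalised reads in controls and at 16368, 17004 and 18720 with FL-ApoE4. The groups did not overlap, although control replicate 1 lay 15.3% below the other controls and came close to the highest treated library. Its log2 fold change of -0.30 ± 0.08 (limma adjusted p = 0.217) was -0.38 ± 0.06 without control replicate 1 (adjusted p = 0.012).

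Slc38a1 was at 22373, 22586 and 22567 normalised reads in controls and at 18591, 20864 and 21488 with FL-ApoE4. The treated libraries were all lower, by a varying amount. Slc38a1 differed by -0.15 ± 0.06 on the log2 scale (limma adjusted p = 0.355) and did not pass the threshold in any alternative analysis run, with -0.09 without both libraries that stood apart (adjusted p = 0.0785).

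Slc1a4 encodes ASCT1, an exchanger of serine, alanine and cysteine, and Slc1a5 encodes ASCT2, a major route of glutamine uptake. Slc1a4 was at 2196, 2572 and 2627 normalised reads in controls and at 1723, 1707 and 2005 with FL-ApoE4. All treated libraries were lower, and the mean was 26.5% below that of controls. Its log2 fold change of -0.44 ± 0.09 had the lowest unadjusted p of the 10 genes and an adjusted p of 0.155 by limma. When control replicate 1 was left out, Slc1a4 fell by 0.52 ± 0.08 (adjusted p = 0.00787).

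Slc1a5 was at 19037, 20482 and 21002 normalised reads in controls and at 18856, 19089 and 19096 with FL-ApoE4. The groups overlapped through control replicate 1, which lay 8.22% below the other controls. On the log2 scale the difference was -0.08 ± 0.05 over all libraries (limma adjusted p = 0.534) and -0.13 ± 0.04 without control replicate 1 (adjusted p = 0.155), and Slc1a5 was called once FL-ApoE4 replicate 1 was also left out (-0.12, adjusted p = 0.0262). The ratio of Slc1a4 to Slc1a5, per kb, was 0.0825, 0.0898 and 0.0894 in controls and 0.0654, 0.0639 and 0.0751 with FL-ApoE4, and the libraries did not overlap.

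Slc6a9 encodes GLYT1, which imports glycine with sodium and chloride. It was at 1787, 1994 and 1725 normalised reads in controls and at 1286, 1497 and 1553 with FL-ApoE4. The treated libraries were all lower, with a mean 21.2% below that of controls. Its log2 fold change of -0.35 ± 0.09 (limma adjusted p = 0.204) was -0.36 ± 0.10 without control replicate 1 (adjusted p = 0.0729). In the annotation of build GRCm38, 1555 bases of its exons overlap exons on the opposite strand (B4galt2, Ccdc24 and Gm17114), and since the strand setting of the counting is not given, its level is uncertain. None of the other 9 genes had an exon overlap.

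Per kb of transcript, Slc3a2 was the most abundant of the 10 in controls, followed by Slc1a5 (7187 ± 363 normalised reads per kb), Slc7a5 (6856 ± 117), Slc38a2 (3491 ± 330), Slc38a1 (3098 ± 16.2), Slc7a1 (2615 ± 37.6), Slc7a6 (1990 ± 38.4), Slc7a11 (1784 ± 1370), Slc1a4 (628 ± 59.8) and Slc6a9 (527 ± 40.4). Control ranges overlapped between Slc1a5 and Slc7a5, between Slc7a6 and Slc7a11 and between Slc1a4 and Slc6a9. The control values of Slc7a11 (3369, 1058 and 927 normalised reads per kb) also spanned those of Slc7a1 and Slc38a1 and reached into those of Slc38a2, so its place is not settled. With FL-ApoE4 the means stood in the same order, but Slc38a2 (2839 ± 199) overlapped Slc38a1 (2796 ± 210), Slc7a1 (2097 ± 248) overlapped Slc7a6 (2060 ± 48.5) and Slc1a4 overlapped Slc6a9. In FL-ApoE4 replicate 2, Slc38a2 was 0.968 times Slc38a1. With the length of all annotated exons in place of the longest transcript, Slc7a5 ranked above Slc1a5, and Slc7a6 above Slc7a1 and Slc38a1, so the middle of the order depends on the transcript model. Together the 10 genes took 0.342%, 0.311% and 0.310% of all normalised reads in controls and 0.255%, 0.266% and 0.282% with FL-ApoE4. Without Slc7a11 the shares were 0.283% to 0.293% and 0.245% to 0.267%.

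The library effects differed between the genes. Control replicate 1 was within 5% of the mean of the other controls for 5 genes (Slc7a5, Slc7a6, Slc7a1, Slc38a1 and Slc6a9), above it for Slc3a2 and Slc7a11, and below it by 15.3% for Slc38a2, 15.5% for Slc1a4 and 8.22% for Slc1a5. Among FL-ApoE4 libraries replicate 1 was the lowest for 8 of the 10 genes. It lay below the mean of the other treated libraries by 21.0% for Slc7a11, 18.1% for Slc7a1, 12.2% for Slc38a1 and 8.36% for Slc38a2, whose longest transcripts have 9223, 7179, 7266 and 6116 bases, where the median tested gene has 3238. For Slc6a9, with 3479 bases, it was 15.7% below, and for Slc3a2, with 2813 bases, it was not lower. When the dependence of each library on length and GC content was removed, the log2 fold changes were -1.05 for Slc7a11, -0.30 for Slc7a1, -0.11 for Slc38a1 and -0.24 for Slc38a2, and 0 members were called by limma, with 7 lower at an unadjusted p under 0.05 (7.22% of genes).

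Upstream of the transporters, Atf4 itself was at 24607, 24747 and 24368 normalised reads in controls and at 18629, 16714 and 18796 with FL-ApoE4. Its log2 fold change was -0.45 ± 0.06 (limma adjusted p = 0.0806) and -0.45 without control replicate 1 (adjusted p = 0.00511). Over all libraries Atf4 passed with DESeq2 (adjusted p = 3.42e-07) and in the authors' deposited table (adjusted p = 4.66e-07), where 1.41% and 1.33% of genes were called lower. After the length and GC correction its limma adjusted p was 0.0413. Control replicate 1 did not stand apart for Atf4. The transcript of the amino acid sensing kinase GCN2, Eif2ak4, was at 4747 ± 436 and 4334 ± 346 normalised reads, and the groups overlapped. A list of 9 genes held those for eIF2α, its kinases, its phosphatase subunits and regulators of GCN2. Limma without control replicate 1 called 1 of them lower and 0 higher, where 1.69% of all tested genes were called lower and 2.93% higher. Without both libraries that stood apart 2 were called lower and 1 higher, where 5.53% and 7.02% of genes were. The 1 gene called without control replicate 1 was Ppp1r15b (-0.27, limma adjusted p = 0.0132), which encodes a constitutive phosphatase subunit. Over all libraries Ppp1r15b was at -0.26 (limma adjusted p = 0.112, DESeq2 adjusted p = 0.000602). Without both, the other calls were Eif2ak4 (-0.15, limma adjusted p = 0.0317) and Impact (0.17, limma adjusted p = 0.0226), which encodes an inhibitor of GCN2. Neither was called by limma over all libraries (-0.13 and 0.08, adjusted p = 0.579 and 0.677). Without control replicate 1 alone they were not called either (limma adjusted p = 0.14 and 0.433). For Impact too the groups overlapped. The inducible subunit Ppp1r15a was at 3648, 2338 and 2014 normalised reads in controls and at 1481, 1452 and 1974 with FL-ApoE4, without overlap. Its change of -0.67 did not pass with limma (adjusted p = 0.267, and 0.116 without control replicate 1) and passed with DESeq2 (adjusted p = 0.0309). RNA levels do not report translation of ATF4.

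The list of 28 tested genes of the amino acid response outside the transporters had 27 negative changes. Its median was -0.22 (log2) over all libraries, beside the -0.25 of the transporters. Without control replicate 1, 9 of them fell and 0 rose by limma, where 1.69% of genes were called lower and 2.93% higher. Without both libraries that stood apart 16 fell and 0 rose, where 5.53% and 7.02% of genes did. Without control replicate 1, Sesn2 fell by 1.10 and Chac1 by 1.65 (adjusted p = 0.00226 and 0.00989), and Cars by 0.39 (adjusted p = 0.00655). A CARE match stood in the windows of 7 of the 24 genes of this list that had one, against 2 of the 7 transporters. The list was compiled with earlier results of these data known.

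Other amino acid transporters of the cell membrane gave different values. Of 15 tested, 9 had negative changes, and the median log2 fold change was -0.07 over all libraries and 0.03 without control replicate 1, where 0 fell and 1 rose by limma (1.69% and 2.93% of genes), with Slc7a7 at 0.36 (limma adjusted p = 0.0346). Without both libraries that stood apart 0 fell and 4 of the 15 rose (5.53% and 7.02% of genes). Over all libraries Slc7a7 was at 0.27 (limma adjusted p = 0.306). Slc7a7 encodes y+LAT1, another light chain of Slc3a2, and was at 515, 429 and 421 normalised reads in controls and at 549, 528 and 561 with FL-ApoE4. Its libraries did not overlap. Control replicate 1 lay above the other controls by a median of 0.24 (log2) over this list, and its part in the difference was not tested. Slc7a7 was also the single gene of this list with a CARE match in its window. Slc7a2, a cationic amino acid transporter that is inducible in macrophages, had 9460 normalised reads in control replicate 1 and between 4453 and 5872 in the other 5 libraries. No test of the difference between these lists was run.

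**Figure D4:**
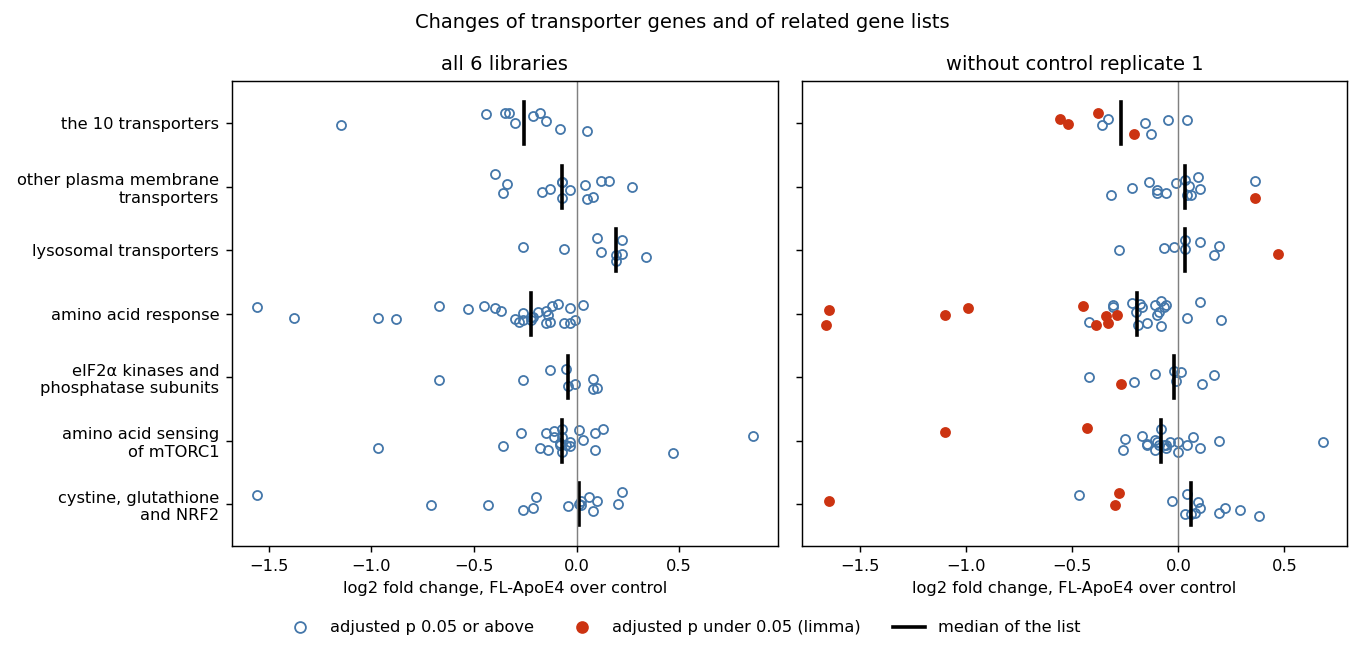
The log2 fold change of FL-ApoE4 over control (x axis) for each tested gene of the 10 transporters and of 6 related lists (rows), over all 6 libraries (left) and without control replicate 1 (right), with filled red points for limma adjusted p under 0.05 and black bars for medians. The transporters have a median of -0.25 and -0.27 and the amino acid response genes of -0.22 and -0.19, and no point is filled on the left.

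Slc7a11 is also a known target of NRF2, the factor of the antioxidant response encoded by Nfe2l2. In a list of 15 cystine, glutathione and NRF2 genes, control replicate 1 lay above the other controls by a median of 0.42 on the log2 scale, against -0.01 over all tested genes, 0.03 in the amino acid response list and 1.76 for Slc7a11. Nfe2l2 was at 25815, 19108 and 18461 normalised reads in controls and at 15438, 15490 and 15515 with FL-ApoE4, and Hmox1, an NRF2 target that degrades heme, was at 173807, 114731 and 95745 and at 70386, 69084 and 89015. For both, control replicate 1 was the highest library and the groups did not overlap. Without it, 3 genes of the list fell by limma and 0 rose, where 1.69% and 2.93% of genes did, and without both libraries that stood apart 4 fell and 2 rose, where 5.53% and 7.02% did. The 3 were Nfe2l2 (-0.28, adjusted p = 0.0103), Gclc (-0.30, adjusted p = 0.0431), which encodes the limiting enzyme of glutathione synthesis, and Chac1. Over all libraries Nfe2l2 was at -0.43 (limma adjusted p = 0.215) and Gclc at -0.21 (limma adjusted p = 0.364). The named genes of this list all had negative changes, but most of the list did not. Of the 15 genes, 7 had negative changes over all libraries and 5 without control replicate 1. The median of the list was 0.01 over all libraries and 0.06 without control replicate 1. The activity of NRF2 was not measured. Among 8 tested regulators other than ATF4 that are known for these transporters, 7 had negative changes, the median was -0.24 (-0.19 without control replicate 1), and 1, Nfe2l2, was called lower by limma without that library (1.69% of genes). Without both libraries that stood apart 5 of the 8 were called lower, where 5.53% of genes were, among them Atf3, Atf5 and Cebpg (limma adjusted p = 0.0133, 0.0236 and 0.028). Atf3, Atf5 and Cebpg are also counted in the amino acid response list, and Nfe2l2 in the list of NRF2 genes. Atf5 was at -0.21 over all libraries (limma adjusted p = 0.258) and -0.19 without control replicate 1 (limma adjusted p = 0.176). Atf3, a stress-induced factor, was at 18159, 12291 and 10993 normalised reads in controls and at 9236, 8637 and 10273 with FL-ApoE4, lower in all treated libraries. Its log2 fold change was -0.53 ± 0.17 over all libraries (limma adjusted p = 0.267, DESeq2 adjusted p = 0.0402) and -0.31 without control replicate 1 (limma adjusted p = 0.0636, DESeq2 adjusted p = 0.00883). Cebpg, a dimer partner of ATF4, was at 4061 ± 125 and 3563 ± 266 normalised reads, also without overlap (-0.19 ± 0.07, limma adjusted p = 0.291). Myc, a known regulator of Slc7a5 and Slc1a5, was at 605, 307 and 302 in controls and at 209, 189 and 357 with FL-ApoE4, and the groups overlapped. The part of these factors in the transporter levels was not tested.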

How the data were processed

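Expression was measured in 3 control and 3 FL-ApoE4 libraries. The deposited table gives a normalised signal per gene and library. Within a library each deposited signal value is a whole multiple of 1 step (tolerance 0.01, 100% of values), and division by that step gave whole reads. The submitters' processing notes name HISAT2 2.2.1, HTSeq, DESeq2 1.30.1, FastQC 0.11.8 and build GRCm39, without settings. The authors' deposited table of statistics holds a log2 fold change, a test score, a p-value and an adjusted p-value per gene.

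Differences were tested two-sided with limma 3.58.1 (R 4.3.3, trended variance) on log2(value + 1), which understates changes of low genes, over the 14079 genes with a mean of at least 10. Group was the only term. As alternatives, edgeR 4.0.16 (quasi-likelihood, TMM) and DESeq2 1.42.0 took the recovered counts. Other pseudocounts, filters, scalings, a replicate block, a length and GC correction and leaving out libraries were also tried. Lengths came from GENCODE M21 (92.0% of tested genes). The method was also tested on simulated data.

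The members and lists were chosen with earlier results of these data known. The lists share genes, among them Atf3, Atf5, Cebpg, Ppp1r15a, Chac1, Sesn2 and Nfe2l2, so their counts are not separate evidence. All 10 members, Atf4, Eif2ak4, Nfe2l2 and Myc, and up to 4 genes of lowest p per list were eligible to be named. Markers and genes said to be named after their values were seen are exceptions.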

Additional observations from a re-analysis of the deposited data

How the results depend on the processing

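Genes called numbered 0 over all 6 libraries and 370 with DESeq2, 1 with no filter beyond a mean above 0 and 20 after the length and GC correction. Leaving out 1 library gave 0 to 651 (651 without control replicate 1, 1 without FL-ApoE4 replicate 2). Members called lower were 0, 4 with DESeq2, and 0 to 4 with 1 library left out. Chosen after the data were seen, leaving out both libraries that stood apart gave 1767 genes and 7 members, and without control replicate 1 edgeR gave 691 and 4 and DESeq2 959 and 6. Their cause was not tested beyond the fewer samples. Members called higher were 0 in all of these. The median of the members stayed within 0.0598 (log2, the spread of library medians) of -0.25 in all 22 alternatives, and 0 of 220 member values changed sign. Slc7a11 ranged from -1.49 to -0.44 and Slc3a2 from -0.25 to -0.05, the other members by less. Replicate numbers showed no clear pairing of the samples, with correlations of deviations of 0.13, 0.07 and -0.03 for numbers 1 to 3. Unlike numbers gave -0.16 to 0.16, and 3 samples a group cannot exclude a pairing. Both libraries that stood apart carry number 1, and a shared batch was not tested. With the replicate block 0 genes and 0 members were called and the median was -0.25. The pairing with the length and GC correction was not run. The power for changes as small as those of Slc3a2 and Slc1a5 was not tested, and 2 or 3 libraries a group limit the precision.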

Other observations

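A list of transporters of the lysosomal membrane, most but not all of them for amino acids, held 9 tested genes. Its median log2 fold change was 0.19 with all 6 libraries and 0.03 without control replicate 1. Over the list control replicate 1 differed from the other controls by a median of -0.19 (log2), and its part in the first median was not tested. Slc15a4, a histidine and peptide carrier of the lysosome, was at 4045, 4031 and 4081 normalised reads in controls and at 4680, 4582 and 4649 with FL-ApoE4. Its libraries did not overlap, and they differed by 0.19 ± 0.04 on the log2 scale (limma adjusted p = 0.168, DESeq2 adjusted p = 0.037). By limma Slc15a4 did not pass without control replicate 1 (adjusted p = 0.0565) and passed without both libraries that stood apart (adjusted p = 0.00611). The 1 gene of the list that rose without control replicate 1 by limma was Slc15a3 (0.47, adjusted p = 0.00144), where 2.93% of genes were called higher. This related carrier was named after its values were seen. Over all libraries it was at 0.22 (limma adjusted p = 0.684), and control replicate 1, at 25839 normalised reads, was above every FL-ApoE4 library. Without both libraries that stood apart 3 of the 9 genes were called higher and 0 lower, where 7.02% and 5.53% of genes were. Slc38a9, the arginine sensor of the lysosome, was at 760 ± 81.0 and 824 ± 29.1 normalised reads, with overlapping groups.

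Among 23 tested genes through which amino acids act on the growth kinase mTORC1, the median log2 fold change was -0.07, and without control replicate 1 it was -0.08, with 2 genes lower and 0 higher by limma, where 1.69% and 2.93% of genes were. Without both libraries that stood apart 3 were lower and 0 higher, where 5.53% and 7.02% of genes were. The 2 were Sesn2, a leucine sensor, and Rragd, a Rag GTPase named after its values were seen (-0.43, adjusted p = 0.014). Over all libraries Rragd was at -0.27 (limma adjusted p = 0.459), and control replicate 1, at 965 normalised reads, was below every FL-ApoE4 library. Sesn1 was at 1088, 1975 and 1871 normalised reads in controls and at 2267, 2294 and 2046 with FL-ApoE4, higher in all treated libraries, differing by 0.47 ± 0.21 (log2) over all libraries (limma adjusted p = 0.407) and 0.19 without control replicate 1 (adjusted p = 0.158).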
